A study of Mus musculus with 12 samples.

Results

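Hypoxia-inducible genes outside glycolysis were examined in cultured mouse fibro/adipogenic progenitors (FAPs), mesenchymal cells of skeletal muscle that can form fibroblasts and adipocytes. The set lists 36 genes of the hypoxia-inducible factor (HIF) pathway and among its known targets, leaving out the enzymes of glycolysis. A gene entered by the transcript clusters (the array's gene-level rows) whose only gene symbol it was, and by the brightest of them where there were several. This gave 35 of the 36 genes, out of 19938 genes with such a cluster. Loxl2 has no cluster of its own symbol alone and was not analysed here. Bnip3, Bnip3l, Ak4 and Higd1a have more than one cluster each.

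RNA was measured on 12 Affymetrix Mouse Gene 1.0 ST arrays, each from cells pooled from 2 mice. Male C57Bl/6 mice aged 8 to 12 weeks, with uninjured hindlimbs, were the source of the FAPs. Every culture, controls included, grew for 2.5 days and then received an antisense oligonucleotide (AMO) at 10 µM in 2 successive transfections of 48 hours. PDGF-AA, a ligand of the receptor PDGFRα, was added in the second period at a dose the labels give as 50 uM. The 6 groups hold 2 arrays each. They are the pA AMO, aimed at the intronic polyadenylation site of Pdgfra, with and without PDGF-AA, the 5'ss AMO, aimed at an intronic 5' splice site of Pdgfra, with and without PDGF-AA, and the control AMO with and without PDGF-AA. The labels name no change of oxygen in any group. As cultures were measured in bulk, less RNA per cell and fewer cells that express a gene cannot be told apart.

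HIF is a transcription factor made of an oxygen-regulated alpha subunit (Hif1a, Epas1 or Hif3a) and a constant partner, Arnt. In oxygen, prolyl hydroxylases of the Egln family mark the alpha subunit, Vhl binds the marked protein and it is degraded, while the asparaginyl hydroxylase Hif1an blocks its activity. When oxygen is low the alpha subunit accumulates and the factor switches on genes for pH control, vessel growth, mitochondrial turnover, chromatin change and collagen hydroxylation. Much of this control acts on the protein, which these arrays do not measure. Egln3, Egln1 and Bhlhe40 are themselves HIF targets, and the enzymes that hydroxylate collagen link the pathway to the fibrous matrix that FAPs make.

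The HIF dimer binds DNA at a short core, which is ACGTG or GCGTG. Promoters of 28 of the 35 genes are held in the RefSeq sequences (build GRCm38.p6). Both cores were searched on both strands in the 250 bases before the start site, and 25 of the 28 genes (89.3%) had a match in at least 1 promoter, compared with 41.5% of the 27025 genes with a promoter. The median GC content of the window was 63.4% in the 28 genes and 52.4% in all genes. Among genes with a GC content of at least 60%, a match was present in 18 of 19 of the set (94.7%) and in 67.0% of all. A match describes letters and not a bound site, and palindromic matches such as CACGTG, which is also an E-box, are counted once on each strand. The set was chosen as HIF pathway genes and known targets, so these shares are no test of HIF control.

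The first 5 promoters shown belong to the genes with the largest changes with PDGF-AA under control AMO, and the last to Vhl, a gene of the pathway with no match, for comparison. Each runs 5' to 3' on the gene's own strand up to the base before the start site, and capitals mark the matches. Car9 has 1 match close to the start site (position -18) and Egln3 has 1 far from it (position -229), while Fam162a has 6, Bnip3 5 and Ankrd37 4. Matches were not confined to genes with large changes. Egln2 (averaged change with PDGF-AA 0.05) and Bhlhe41, lower with control AMO, have up to 4 each, and Hif1a (0.08) has 3.
Car9 (chr4:43506776-43507025, plus strand): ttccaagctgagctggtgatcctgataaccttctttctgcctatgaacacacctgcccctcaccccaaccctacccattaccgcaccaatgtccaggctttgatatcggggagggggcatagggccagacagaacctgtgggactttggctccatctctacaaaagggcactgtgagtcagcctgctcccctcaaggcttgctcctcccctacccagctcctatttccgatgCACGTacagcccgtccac
Egln3 (chr12:54203875-54204124, minus strand): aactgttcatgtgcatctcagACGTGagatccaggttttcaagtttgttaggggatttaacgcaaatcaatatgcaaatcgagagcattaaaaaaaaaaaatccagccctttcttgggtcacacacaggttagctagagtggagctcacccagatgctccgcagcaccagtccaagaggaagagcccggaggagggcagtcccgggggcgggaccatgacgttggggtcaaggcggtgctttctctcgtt
Fam162a (chr16:36071562-36071811, minus strand): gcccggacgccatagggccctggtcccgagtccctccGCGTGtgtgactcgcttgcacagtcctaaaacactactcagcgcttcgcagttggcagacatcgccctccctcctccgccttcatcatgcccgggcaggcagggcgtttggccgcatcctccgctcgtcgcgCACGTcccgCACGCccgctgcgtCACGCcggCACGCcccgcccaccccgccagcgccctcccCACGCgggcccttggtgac
Bnip3 (chr7:138909507-138909756, minus strand): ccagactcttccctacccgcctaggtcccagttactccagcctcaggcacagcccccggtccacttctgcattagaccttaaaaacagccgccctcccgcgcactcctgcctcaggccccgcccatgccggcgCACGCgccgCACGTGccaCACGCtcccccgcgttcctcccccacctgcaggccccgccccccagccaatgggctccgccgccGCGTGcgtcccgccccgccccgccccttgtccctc
Ankrd37 (chr8:45999851-46000100, minus strand): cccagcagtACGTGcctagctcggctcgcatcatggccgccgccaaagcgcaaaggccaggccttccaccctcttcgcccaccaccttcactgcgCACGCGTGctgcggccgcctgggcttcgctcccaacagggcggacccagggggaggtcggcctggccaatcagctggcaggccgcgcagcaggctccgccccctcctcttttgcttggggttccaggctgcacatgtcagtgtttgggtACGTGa
Vhl (chr6:113623744-113623993, plus strand): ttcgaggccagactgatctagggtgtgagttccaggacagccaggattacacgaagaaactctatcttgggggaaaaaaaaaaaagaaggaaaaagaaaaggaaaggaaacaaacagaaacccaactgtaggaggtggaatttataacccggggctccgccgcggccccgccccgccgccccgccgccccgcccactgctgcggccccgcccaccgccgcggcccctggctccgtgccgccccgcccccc

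The 35 genes were measured on every array, and 33 of them had a mean log2 value above 6.102, the 40th percentile of all clusters tested. Hif3a, an alpha subunit, averaged 5.14 and Car12, a membrane carbonic anhydrase, 5.20, so both were dim. As a check of the cells, all 8 FAP and fibroblast markers measured were above that limit, and so were 2 of 6 macrophage, 4 of 6 endothelial, 4 of 6 smooth muscle, 4 of 6 tendon, 8 of 9 myogenic, 2 of 3 Schwann cell and 6 of 6 adipocyte markers. Those under it were Ptprc, Adgre1, Itgam and Csf1r (macrophage and leukocyte), Pecam1 and Emcn (endothelial), Rgs5 and Myh11 (smooth muscle), Mkx and Kera (tendon), Myf5 and S100b. Other markers of the same cells were above it, among them Pax7 at 6.54, Myod1 at 6.78, Myog at 6.75, Cdh5 at 7.20, Tek at 8.80, Cd68 at 7.23 and Lyz2 at 6.79. Arrays correlated with each other at 0.9882 to 0.9975, and each of the 12 was closest to an array of its own replicate number and not to the other array of its group.

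**Figure D1:**
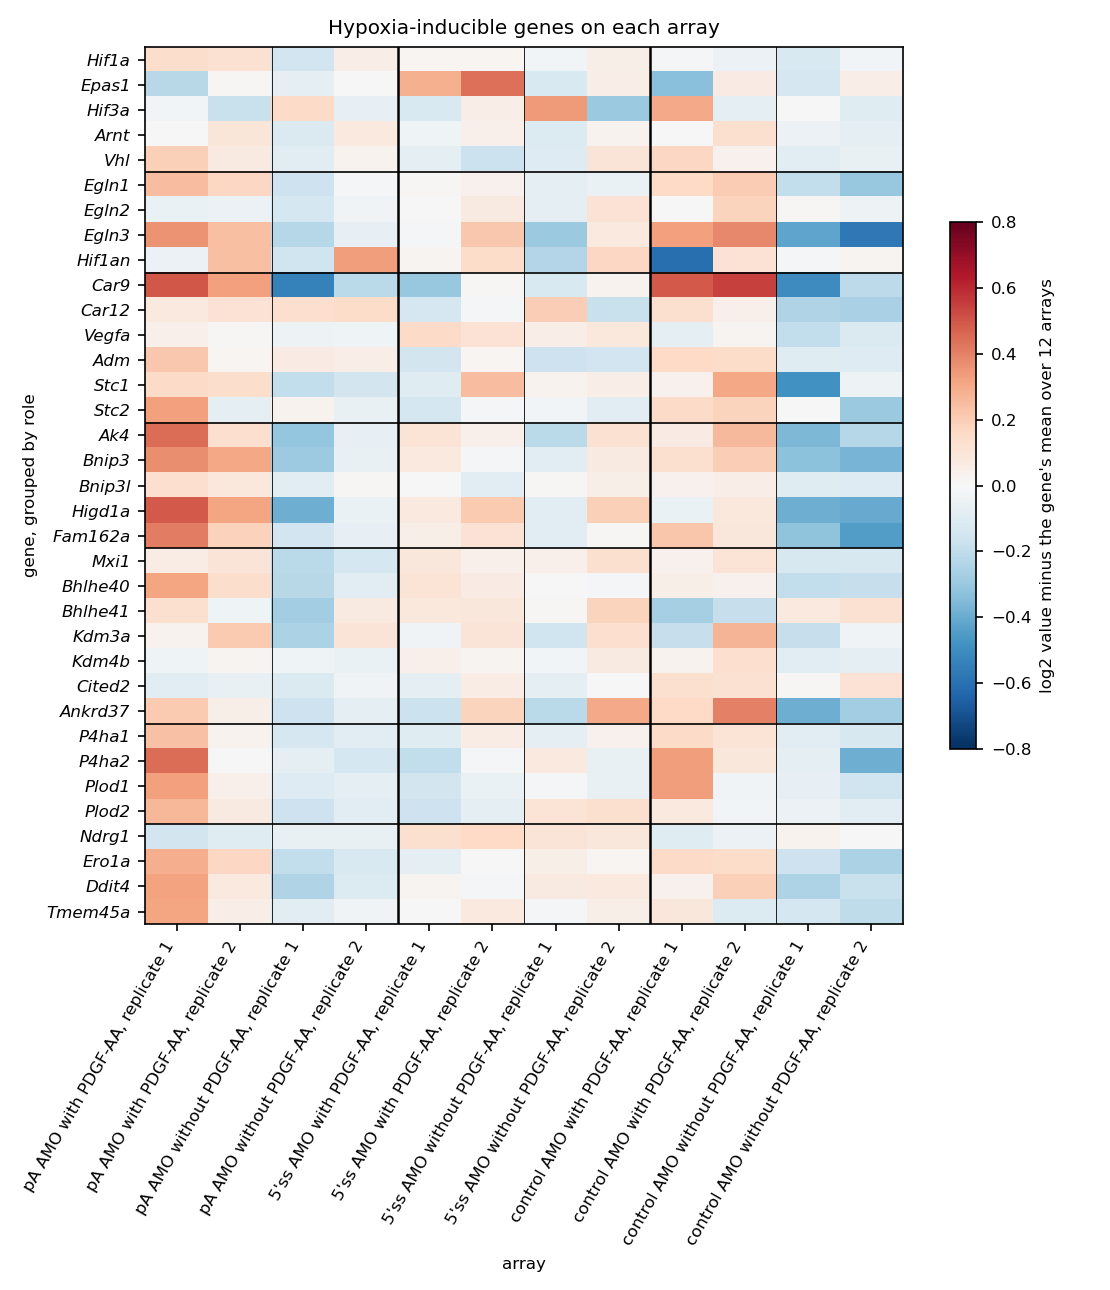
Each cell is the log2 value of a gene (rows, in blocks by role) on 1 array (columns) minus that gene's mean over the 12 arrays, red above and blue below. Most rows are red with PDGF-AA and blue without it in the pA AMO and control AMO columns, and pale in the 5'ss AMO columns.

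Seen array by array, the set was high with PDGF-AA under pA and control AMO and low without it. Under 5'ss AMO it was in between in replicate 1, while replicate 2 was as high with PDGF-AA as without it. Counting the genes above their own mean over the 12 arrays gave 28 and 28 of 35 on the pA AMO arrays with PDGF-AA, against 4 and 9 on the pA AMO arrays without it. With 5'ss AMO the counts were 17 and 26 with PDGF-AA, against 12 and 26 without it. With control AMO they were 25 and 28 with PDGF-AA, against 5 and 4 without it. The lower count of each 5'ss AMO pair came from replicate 1, and the count of 26 in replicate 2 lay within those of the other PDGF-AA arrays. No share of all clusters was computed for these counts, so they describe the set only.

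With control AMO, the log2 change with PDGF-AA was 0.88 for Car9 (carbonic anhydrase, a marker of hypoxic cells), 0.85 for Egln3, 0.62 for Ankrd37, 0.54 for Fam162a, 0.51 for Bnip3, 0.43 for Egln1 and 0.36 for Ero1a, and -0.33 for Bhlhe41. The median log2 change of the 35 genes was 0.23, with 31 above 0 (53.3% of all 21789 clusters were), and the median of all clusters was 0.012. At an unadjusted p under 0.05 in limma, 17 of the 35 were higher and 1 was lower. Across all clusters 3.07% were higher and 1.74% lower by that rule, and across the clusters above the dim limit 1.48% were higher. In limma 0 of the 21789 clusters (0%) passed after Benjamini-Hochberg adjustment, out of 1049 at an unadjusted p under 0.05, so no single gene of the set was called, while trended and robust moderation passed 13 clusters, Egln3, Fam162a and Bnip3 among them. Leaving out control AMO without PDGF-AA replicate 1, the same group's replicate 2, or control AMO with PDGF-AA replicate 2 left 10 genes higher in each case, and leaving out control AMO with PDGF-AA replicate 1 left 11. Centring each array on its median left 9. Blocked on replicate number, limma passed 0 clusters (smallest adjusted p 0.0704, and 0.0755 in the set). By unadjusted p under 0.05 that fit gave 19 genes higher and 1 lower, beside 7.6% and 5.14% of clusters.

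With pA AMO the same kind of shift was seen. The median change was 0.24, with 30 of 35 genes above 0 (47.4% of clusters) and an all-cluster median of -0.006, and 13 genes were higher and 0 lower at an unadjusted p under 0.05, against 1.17% higher and 1.2% lower of all clusters. The 6 genes with the smallest p were Car9 at 0.79, Bnip3 at 0.52, Higd1a at 0.63, Ero1a at 0.39, Bhlhe40 at 0.38 and Fam162a at 0.41. No cluster passed adjustment (0%, smallest adjusted p 1, with 517 at an unadjusted p under 0.05 in limma). The shift was larger in replicate 1, where the median within-replicate change was 0.35, than in replicate 2, where it was 0.11. Leaving out replicate 1 of either pA AMO group left 7 genes higher at an unadjusted p under 0.05. The median was 0.14 when the PDGF-AA array was left out. Blocked on replicate number, limma passed 0 clusters (smallest adjusted p 0.164, and 0.275 in the set). By unadjusted p under 0.05 that fit gave 18 genes higher and 0 lower, beside 2.62% and 3.28% of clusters.

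With 5'ss AMO the median change with PDGF-AA was 0.02, with 20 of 35 above 0 (48% of clusters), and that of all clusters was -0.005. Only Epas1 was higher and only Plod2, a lysyl hydroxylase of collagen, was lower at an unadjusted p under 0.05, where 0.808% and 0.835% of all clusters were. The next by p were Egln3 at 0.21, Vhl at -0.12, Fam162a at 0.12 and Bhlhe40 at 0.10. No cluster passed adjustment in limma (0%, with 358 at an unadjusted p under 0.05). Leaving out replicate 1 of the 5'ss AMO cultures that lacked PDGF-AA turned the median to -0.04, and leaving out replicate 2 of those that received it turned it to -0.02, with 0 genes higher in limma in both cases. Leaving out the other array of either group gave 0.05, with 2 genes higher when the one lacking PDGF-AA was dropped. Blocked on replicate number, limma passed 0 clusters (smallest adjusted p 0.626, and 0.998 in the set). By unadjusted p under 0.05 that fit gave 1 gene higher and 1 lower, beside 2.21% and 2.32% of clusters.

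**Figure D2:**
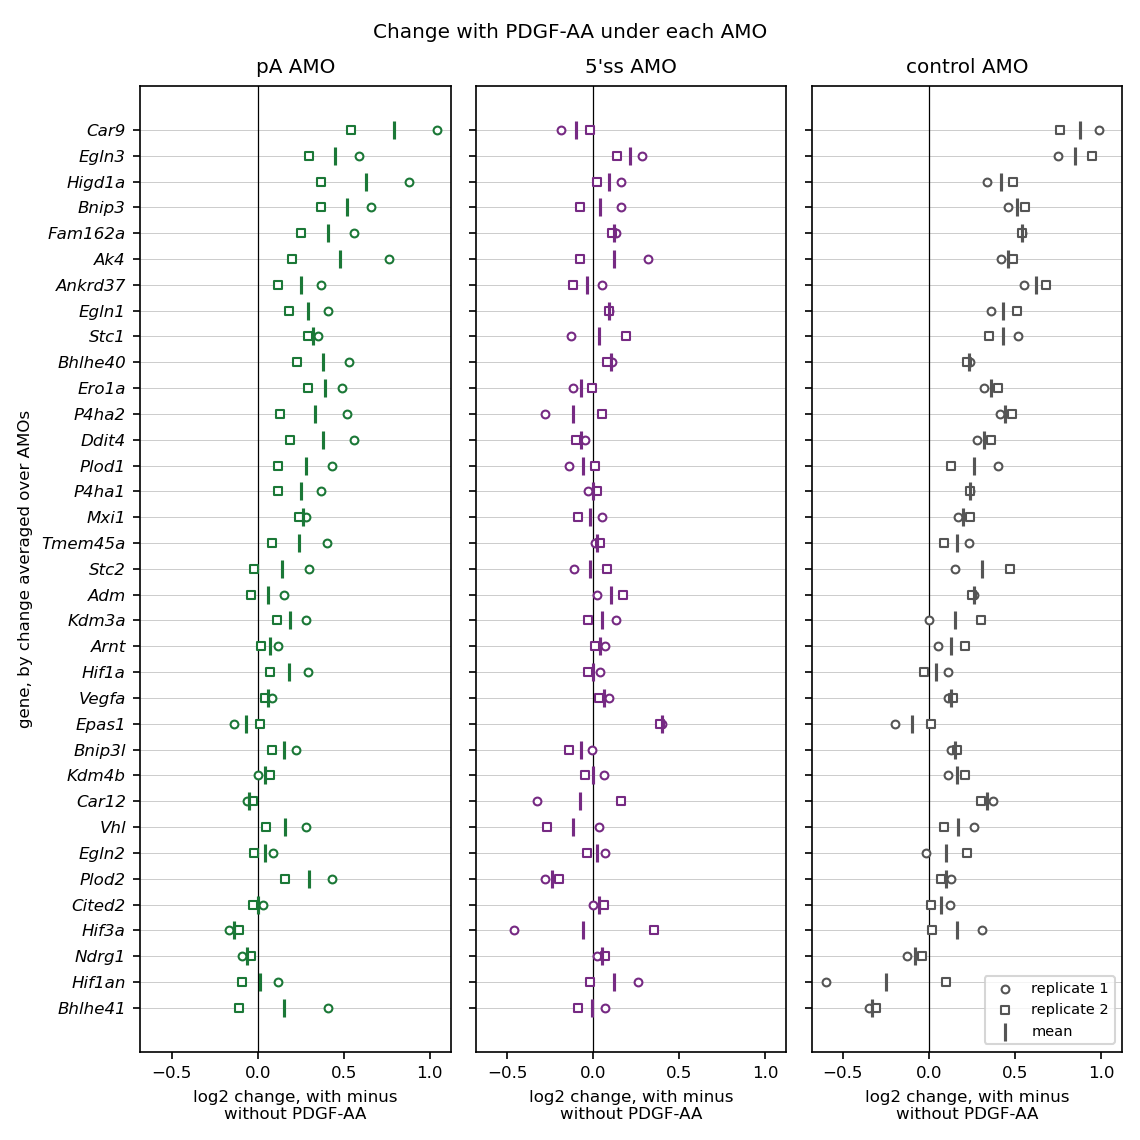
Log2 change with PDGF-AA (horizontal) of each gene (vertical, ordered by the change averaged over AMOs) under pA AMO, 5'ss AMO and control AMO, with circles for replicate 1, squares for replicate 2 and a bar for their mean. Car9 lies at 0.54 to 1.04 under pA AMO and control AMO and below 0 in both replicates under 5'ss AMO.

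Within replicates the signs were steady under pA and control AMO. Of the 35 genes, 23 were higher with PDGF-AA in 4 of 4 such changes, a pattern that 7.82% of all clusters showed. Over all 3 AMOs 8 genes were higher in 6 of 6 changes (1.68% of clusters), namely Arnt, Egln1, Egln3, Vegfa, Higd1a, Fam162a, Bhlhe40 and Tmem45a. Under 5'ss AMO by itself 11 were higher in both replicates, beside 22.8% of clusters, and 5 were lower in both, beside 25.6%. Those 5 were Car9, Bnip3l, Plod2, Ero1a and Ddit4.

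Averaged over the AMOs, 31 of 35 genes were above 0 with PDGF-AA (50.8% of all clusters were), with a median of 0.14, and 16 were higher at an unadjusted p under 0.05 in limma, while 0 were lower (1.73% and 1.66% of clusters). In limma 0 of 21789 clusters (0%) passed, with 738 at an unadjusted p under 0.05. With the replicate number as a block 21 clusters passed (0.0964%), and of the set Car9 was the only gene among them (adjusted p = 0.0481). With a trended and robust estimate of the spread in limma, 39 clusters passed, 6 of them genes of the set, namely Bnip3, Fam162a, Egln3, Ero1a, Car9 and Egln1 (adjusted p between 0.00712 and 0.0395). Arrays with and without PDGF-AA did not overlap for 3 genes of the set, Egln1, Fam162a and Bhlhe40, beside 0.165% of all clusters.

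Of the subunits and Vhl, Hif1a, Arnt and Vhl differed little between groups, while Epas1, given below, differed more. Hif1a lay at 11.21 and 11.19 with pA AMO and PDGF-AA, against 10.91 and 11.12 with pA AMO alone. It was at 11.08 and 11.08 with 5'ss AMO and PDGF-AA, against 11.04 and 11.11 with 5'ss AMO alone, and at 11.05 and 11.02 with control AMO and PDGF-AA, against 10.94 and 11.05 with control AMO alone. All 12 values fell within 0.29 log2 units, where a difference of 1 log2 unit is a 2-fold difference in level, and the groups overlapped except under pA AMO. With 2 arrays a group, a lack of overlap was common. Higher with PDGF-AA without overlap were 22 of 35 genes with pA AMO (11.4% of clusters). With 5'ss AMO 7 were (9.13%), and with control AMO 27 (17.5%).

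The averaged change of Hif1a with PDGF-AA was 0.08 (SE 0.057, adjusted p = 1 in limma). Arnt was at 0.08 (SE 0.062) and Vhl at 0.07 (SE 0.062), also not called. The dim Hif3a was at -0.01 (SE 0.115).

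Epas1, the alpha subunit best known from endothelium, had its highest level where PDGF-AA met 5'ss AMO. It was at 9.06 and 9.21 with 5'ss AMO and PDGF-AA, against 8.65 and 8.82 with 5'ss AMO alone. With pA AMO it was at 8.55 and 8.78 with PDGF-AA, against 8.69 and 8.77 without, and with control AMO at 8.44 and 8.84, against 8.64 and 8.83. The 2 arrays of 5'ss AMO with PDGF-AA were the highest of the 12. The change with PDGF-AA under 5'ss AMO was 0.40 (SE 0.149), against -0.10 (SE 0.149) under control AMO, and neither passed in limma (adjusted p = 1 and 0.984). The difference between those effects was 0.49 and did not pass either (adjusted p = 1 in limma).

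Among the oxygen-dependent hydroxylases, Egln3 and Egln1 had the larger differences with PDGF-AA, and Egln2 and Hif1an the smaller. Egln3 was at 8.30 and 8.18 with pA AMO and PDGF-AA, against 7.71 and 7.87 with pA AMO alone. It was at 7.92 and 8.16 with 5'ss AMO and PDGF-AA, against 7.65 and 8.02 with 5'ss AMO alone, and at 8.27 and 8.32 with control AMO and PDGF-AA, against 7.52 and 7.37 with control AMO alone. The arrays overlapped under 5'ss AMO only, and the lowest 2 values of all were those of control AMO alone.

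The Egln3 change was 0.45 (SE 0.140) with pA AMO, 0.21 (SE 0.140) with 5'ss AMO and 0.85 (SE 0.140) with control AMO, with adjusted p of 1, 1 and 0.467 in limma. Egln1, the main oxygen sensor of most cells, was at 9.78 and 9.70 with pA AMO and PDGF-AA, against 9.37 and 9.52 without, and at 9.69 and 9.74 with control AMO and PDGF-AA, against 9.34 and 9.23 without. With 5'ss AMO it was at 9.55 and 9.57, against 9.46 and 9.48. All 6 arrays with PDGF-AA were above all 6 without it, and the averaged change was 0.27 (SE 0.055, adjusted p = 0.374 in limma). Egln2 (0.05, SE 0.061) and Hif1an (-0.04, SE 0.138) were near 0, and Hif1an had a single low array, 6.63 in replicate 1 of control AMO with PDGF-AA, where the other 11 arrays lay at 6.99 or above.

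**Figure D3:**
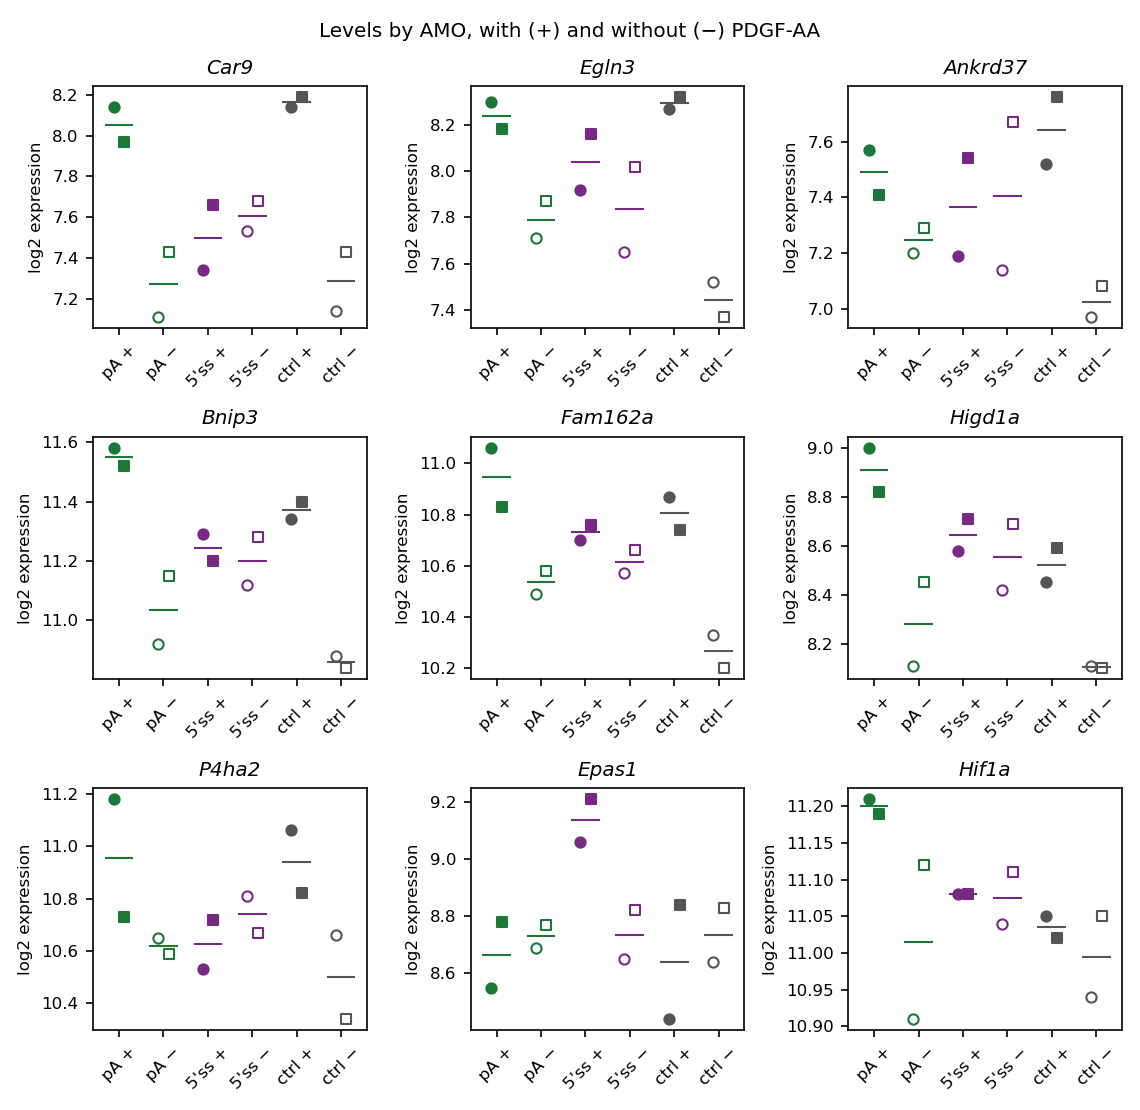
Log2 level (vertical, own scale in each panel) of selected genes in the 6 groups, with PDGF-AA (filled) and without it (open) for pA AMO, 5'ss AMO and control AMO (ctrl), circles for replicate 1, squares for replicate 2 and a line for the mean. Car9 lies at 7.97 to 8.19 with PDGF-AA under pA AMO and control AMO and at 7.68 or below in the other groups, while Epas1 is highest with 5'ss AMO and PDGF-AA.

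Of the genes for pH control and secreted signals, Car9 had the largest difference of the set. It was at 8.14 and 7.97 with pA AMO and PDGF-AA, against 7.11 and 7.43 with pA AMO alone, and at 8.14 and 8.19 with control AMO and PDGF-AA, against 7.14 and 7.43 with control AMO alone. With 5'ss AMO it was at 7.34 and 7.66 with PDGF-AA, against 7.53 and 7.68 without. Under pA and control AMO the arrays with PDGF-AA were well clear of those without, and under 5'ss AMO they overlapped.

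The Car9 change was 0.79 (SE 0.155) with pA AMO, -0.10 (SE 0.155) with 5'ss AMO and 0.88 (SE 0.155) with control AMO. The average over AMOs was 0.52 (SE 0.089), which passed once replicate number was blocked (limma, adjusted p = 0.0481) and not otherwise (0.336). Stc1, a secreted regulator of calcium and phosphate, was at 0.26 (SE 0.094) on average, and its relative Stc2 at 0.14 (SE 0.083). Adrenomedullin (Adm), a vasodilator peptide, was at 0.14 (SE 0.058). The vessel growth factor Vegfa was at 0.08 (SE 0.051) and the dim Car12 at 0.07 (SE 0.071), and none of these 5 passed.

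By the brightest cluster of each gene, the mitochondrial genes were the group with the highest medians under pA AMO (0.48) and control AMO (0.46). Their median was 0.09 under 5'ss AMO. At an unadjusted p under 0.05 in limma, 4 of 5 were higher under pA AMO (1.17% of all clusters), 0 of 5 under 5'ss AMO (0.808%) and 4 of 5 under control AMO (3.07%). The second clusters of Ak4 and Higd1a, given below, had smaller changes under pA and control AMO. Under control AMO the second clusters of Bnip3l, Ak4 and Higd1a had 0.12, 0.21 and 0.10. All were below 0.32, the median of the pH and secreted-signal genes. The second Bnip3 cluster (0.61) and Fam162a (0.54) were above it. The top rank under control AMO thus rested on the brightest clusters. Under pA AMO it held. The second clusters of Bnip3 (0.42) and Higd1a (0.38), and Fam162a (0.41), were above 0.31, the next highest median, while Ak4 (0.23) and Bnip3l (0.15) were below. Bnip3, which drives the removal of mitochondria by autophagy, was at 11.58 and 11.52 with pA AMO and PDGF-AA, against 10.92 and 11.15 without, and at 11.34 and 11.40 with control AMO and PDGF-AA, against 10.88 and 10.84 without. With 5'ss AMO it was at 11.29 and 11.20, against 11.12 and 11.28. The control AMO arrays without PDGF-AA were the lowest of the 12.

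Fam162a, a mitochondrial protein linked to cell death, was at 11.06 and 10.83 with pA AMO and PDGF-AA, against 10.49 and 10.58 without. It was at 10.70 and 10.76 with 5'ss AMO and PDGF-AA, against 10.57 and 10.66 without, and at 10.87 and 10.74 with control AMO and PDGF-AA, against 10.33 and 10.20 without. No array without PDGF-AA reached the lowest array with it. The averaged changes were 0.36 for Fam162a (SE 0.063), 0.36 for Bnip3 (SE 0.062), 0.38 for Higd1a, a protein of the respiratory chain (SE 0.080), and 0.35 for the adenylate kinase Ak4 (SE 0.088), with adjusted p between 0.336 and 0.604 in limma. Bnip3l, a relative of Bnip3, was at 0.07 (SE 0.052).

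The other clusters of these genes did not all give the same values. The second Bnip3 cluster had a PDGF-AA change of 0.42 with pA AMO, 0.10 with 5'ss AMO and 0.61 with control AMO, close to the first. The second Ak4 cluster had 0.23 with pA AMO, -0.02 with 5'ss AMO and 0.21 with control AMO, each below the 0.48, 0.12 and 0.46 of the first. The second Higd1a cluster had 0.38 with pA AMO, 0.44 with 5'ss AMO and 0.10 with control AMO. Its change with 5'ss AMO was thus higher than the 0.09 of the brighter cluster, and its change with control AMO lower than 0.42. The second Bnip3l cluster had 0.15 with pA AMO, -0.08 with 5'ss AMO and 0.12 with control AMO. Differences in level between AMOs are described by the brightest cluster only.

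Among genes of transcription and chromatin, Ankrd37, a small ankyrin-repeat protein, was at 7.57 and 7.41 with pA AMO and PDGF-AA, against 7.20 and 7.29 with pA AMO alone. It was at 7.19 and 7.54 with 5'ss AMO and PDGF-AA, against 7.14 and 7.67 without, and at 7.52 and 7.76 with control AMO and PDGF-AA, against 6.97 and 7.08 without. Its arrays overlapped under 5'ss AMO and not under the others. Its change was 0.25 (SE 0.178) with pA AMO, -0.04 (SE 0.178) with 5'ss AMO and 0.62 (SE 0.178) with control AMO. The clock-linked repressor Bhlhe40 had an averaged change of 0.24 (SE 0.056) and no overlap between arrays with and without PDGF-AA, while its paralog Bhlhe41 was at 0.15 (SE 0.127) with pA AMO and -0.33 (SE 0.127) with control AMO. Mxi1, an antagonist of Myc, was at 0.15 (SE 0.052) on average. The histone demethylases Kdm3a (0.13, SE 0.102) and Kdm4b (0.07, SE 0.052) and the coactivator-binding protein Cited2 (0.03, SE 0.055) had smaller averaged changes, and none of these genes passed.

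Of the collagen-modifying enzymes 4 of 4 were above 0 with pA AMO (median 0.29, 47.4% of all clusters above 0) and 4 of 4 with control AMO (median 0.25, 53.3%). With 5'ss AMO the median was -0.09, with P4ha1 at 0.00 (SE 0.106), Plod1 at -0.06 (SE 0.136), P4ha2 at -0.12 (SE 0.166) and Plod2 at -0.24 (SE 0.1), where 48% of all clusters were above 0. P4ha2, a catalytic subunit of collagen prolyl hydroxylase, was at 11.18 and 10.73 with pA AMO and PDGF-AA, against 10.65 and 10.59 without. It was at 10.53 and 10.72 with 5'ss AMO and PDGF-AA, against 10.81 and 10.67 without, and at 11.06 and 10.82 with control AMO and PDGF-AA, against 10.66 and 10.34 without. Replicate 1 was the higher one in both PDGF-AA groups that stood above their counterparts.

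On average P4ha2 was at 0.22 (SE 0.096), P4ha1, the other common catalytic subunit, at 0.16 (SE 0.061), and the lysyl hydroxylase Plod1 at 0.16 (SE 0.079). Plod2, which makes the lysine residues used in stable collagen crosslinks, was at 0.30 (SE 0.1) with pA AMO and -0.24 (SE 0.1) with 5'ss AMO. Under that AMO Plod2 was at 10.77 and 10.86 with PDGF-AA, against 11.04 and 11.06 without. The arrays did not overlap, which was so for 4 of 35 genes lower under this AMO, near the 10.5% of all clusters. None of these changes passed in limma (adjusted p = 1 each).

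Of the remaining genes, Ero1a, the oxidase that forms disulfide bonds in the endoplasmic reticulum, was at 11.45 and 11.33 with pA AMO and PDGF-AA, against 10.97 and 11.04 without. It was at 11.09 and 11.17 with 5'ss AMO and PDGF-AA, against 11.21 and 11.18 without, and at 11.32 and 11.31 with control AMO and PDGF-AA, against 11 and 10.91 without. The arrays did not overlap under any of the 3 AMOs. Under 5'ss AMO the Ero1a values with PDGF-AA were the lower ones, by -0.12 in replicate 1 and -0.01 in replicate 2. By that rule 4 of 35 genes were lower under 5'ss AMO, near the 10.5% of all clusters, so an opposite direction was not established. Ddit4, an inhibitor of mTOR signalling, was at 0.38 (SE 0.110) with pA AMO, -0.07 (SE 0.110) with 5'ss AMO and 0.32 (SE 0.110) with control AMO. Tmem45a averaged 0.14 (SE 0.066), and Ndrg1, a widely used hypoxia marker, -0.03 (SE 0.049).

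The next comparison asks whether the PDGF-AA effect itself depended on the AMO. Between 5'ss and control AMO it was lower with 5'ss AMO in 31 of 35 genes, with a median difference of -0.24. Of all clusters 46.2% were above 0, with a median of -0.017. At an unadjusted p under 0.05, 11 of 35 had a lower and 1 a higher effect, beside 1.97% and 0.982% of all clusters. The 6 genes with the smallest p were Car9 at -0.98 (SE 0.219, 95% interval -1.47 to -0.49), Egln3 at -0.64 (SE 0.199), Ero1a at -0.42 (SE 0.132), Bnip3 at -0.47 (SE 0.153), Fam162a at -0.42 (SE 0.155) and Ankrd37 at -0.65 (SE 0.251). No cluster passed in limma (0%, 643 at an unadjusted p under 0.05) or with the block, and these genes had an adjusted p of 1. The count of 11 became 5 when replicate 1 of the 5'ss AMO group with PDGF-AA was left out, and 7 without either control AMO array that lacked PDGF-AA, without replicate 2 of 5'ss AMO alone, or without replicate 1 of control AMO with PDGF-AA. It was 3 after centring each array on its median.

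Between pA and 5'ss AMO the effect was higher with pA AMO in 28 of 35 genes (50.2% of clusters), with a median of 0.22. Car9 differed by 0.89 (SE 0.219), Plod2 by 0.54 (SE 0.142), Higd1a by 0.53 (SE 0.196), Bnip3 by 0.48 (SE 0.153) and Ero1a and Ddit4 by 0.45 each. These 6 genes were higher at an unadjusted p under 0.05, beside 0.909% of clusters, and none passed (0%, 418 at an unadjusted p under 0.05 in limma, adjusted p = 1 for each gene named). Dropping replicate 2 of the PDGF-AA group under pA AMO gave 10, and 13 were counted with trended and robust moderation. All of these counts use the brightest cluster of each gene. The second Higd1a cluster did not repeat the difference, since its change under 5'ss AMO (0.44) was not below its change under pA AMO (0.38). The second Bnip3 cluster kept the direction, at 0.10 under 5'ss AMO against 0.42 under pA AMO. Between pA and control AMO the median difference of effects was 0.00, with 18 of 35 above 0 (47.8% of clusters). Bhlhe41, at 0.48 (SE 0.179), was the 1 gene at an unadjusted p under 0.05, beside 0.652% of clusters higher and 1.94% lower. The next by p were Car12 at -0.38 (SE 0.173), Egln3 at -0.40 (SE 0.199), Ankrd37 at -0.37 (SE 0.251), Plod2 at 0.20 (SE 0.142) and Adm at -0.20 (SE 0.142). For Car9 the 95% interval of the difference between pA and control AMO ran from -0.57 to 0.40, which does not show that the 2 AMOs act alike. All of these comparisons share arrays.

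**Figure D4:**
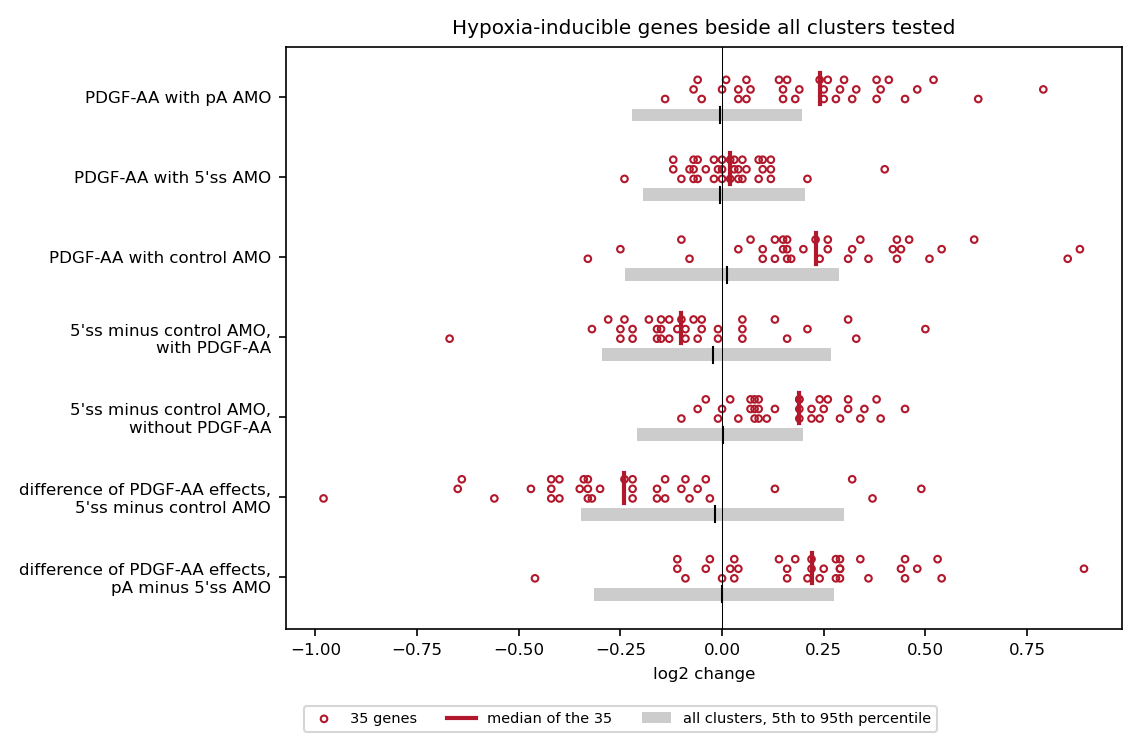
Log2 changes (horizontal) of the 35 genes (red circles, bar at their median) in 7 comparisons (vertical), each above a grey bar that spans the 5th to 95th percentile of all 21789 clusters with a black line at their median. The set lies to the right under pA AMO and control AMO, around 0 under 5'ss AMO, and to the left for the difference between 5'ss and control AMO.

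The levels behind that difference were compared between AMOs. Without PDGF-AA 31 of 35 genes had the higher mean under 5'ss AMO (51% of clusters), and the median difference from control AMO was 0.19. At an unadjusted p under 0.05, 8 were higher and 0 lower in limma, beside 1.07% and 0.996% of all clusters, and the block gave 13 higher and 0 lower, beside 2.42% and 2.46%. The 6 with the smallest p were Higd1a at 0.45 (SE 0.139), Egln3 at 0.39 (SE 0.140), Fam162a at 0.35 (SE 0.110), Bnip3 at 0.34 (SE 0.108), Ddit4 at 0.29 (SE 0.110) and Ero1a at 0.24 (SE 0.093). None passed in limma (0%, adjusted p = 1, with 450 clusters at an unadjusted p under 0.05). The count of 8 became 1 when replicate 2 of the 5'ss AMO group was left out, and 5 and 3 without replicate 1 and replicate 2 of control AMO without PDGF-AA. The median was 0.12 without the first of these arrays. The count was 4 after median centring, 13 with trended and robust moderation and 5 in a fit of these 4 arrays alone. The control arrays of this comparison are also those of the PDGF-AA effect with control AMO.

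With PDGF-AA 9 of 35 genes had the higher mean under 5'ss AMO and 26 under control AMO, and the median difference was -0.10. All clusters leaned the same way, by less, with 44.4% above 0 and a median of -0.022. Car9 was lower by the most, at -0.67 (SE 0.155), and Epas1 was higher, at 0.50 (SE 0.149). The next by p were Ndrg1 at 0.21 (SE 0.085), Bhlhe41 at 0.31 (SE 0.127), Adm at -0.22 (SE 0.101) and Vhl at -0.22 (SE 0.108). By unadjusted p under 0.05, 3 were higher and 1 lower, beside 2.48% and 3.52% of clusters, and with the block 3 were higher and 5 lower, beside 6.95% and 8.62%. The count of 1 lower without the block is near the share of all clusters. No gene of the set passed, with adjusted p in limma of 0.556 for Car9, 0.794 for Epas1 and 0.823 for the other 4. Of all clusters, limma passed 0 (0%), with 1308 at an unadjusted p under 0.05.

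Between pA and control AMO, averaged over PDGF-AA, the median difference was 0.05 with 27 of 35 above 0 (45.1% of clusters), and 4 genes were higher and 1 lower at an unadjusted p under 0.05 (1.36% and 1.89% of clusters). Higd1a was at 0.28 (SE 0.098), Fam162a at 0.21 (SE 0.078), Car12 at 0.20 (SE 0.086), Bnip3 at 0.17 (SE 0.076), Tmem45a at 0.15 (SE 0.081) and Cited2 at -0.17 (SE 0.067). In limma 0 clusters passed (0%, 708 at an unadjusted p under 0.05). Vegfa separated 5'ss from control AMO without overlap, at 9.98 and 9.95 with PDGF-AA and 9.89 and 9.92 without, against 9.75 and 9.85 with PDGF-AA and 9.64 and 9.72 without. Ndrg1 was also higher without overlap, which made 2 of 35 genes, beside 1.26% of all clusters. The Vegfa difference was 0.19 (SE 0.063, adjusted p = 0.995 in limma). By the same contrast Higd1a was at 0.29 (SE 0.098), Ndrg1 at 0.15 (SE 0.060), Epas1 at 0.25 (SE 0.105), Adm at -0.14 (SE 0.071) and Fam162a at 0.14 (SE 0.078), with the same adjusted p.

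Other genes of the pathway were taken from lists that share no gene with the 35. These lists were also chosen with earlier results of these data known, so they give no independent check. The Vhl ubiquitin ligase and HIF coactivators had medians of 0.00 with pA AMO, 0.01 with 5'ss AMO and -0.02 with control AMO, and 0 of 11 were at an unadjusted p under 0.05 in any of these, in limma. Of 38 further hypoxia-induced genes 7 were higher and 0 lower with pA AMO, 0 were higher and 0 lower with 5'ss AMO, and 8 were higher and 2 lower with control AMO, by the same rule. Of all clusters 1.17% were higher and 1.2% lower under pA AMO, where under 5'ss AMO 0.808% were higher and 0.835% lower. A count of 0 in a list of this size under 5'ss AMO is therefore near the background. Under control AMO the shares were 3.07% and 1.74%. Among them the pyruvate dehydrogenase kinase Pdk1 was at 0.35 on average (SE 0.075) and the glycogen synthase Gys1 at 0.25 (SE 0.060), while the IGF-binding protein Igfbp3 was at -0.51 (SE 0.111). Of 14 paralogs and partners of the collagen-modifying enzymes 0 were higher and 1 was lower on average (1.73% and 1.66% of clusters), P4ha3 at -0.41 (SE 0.161), so the higher values of P4ha1 and P4ha2 were not seen in this other catalytic subunit. None of these genes passed, with or without the block.

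Markers of other cells were set beside these results. The summed linear level of the 6 tendon markers was 789 to 956 with pA AMO and PDGF-AA, against 1533 to 1606 without, 1525 to 2125 with 5'ss AMO and PDGF-AA, against 1641 to 1785 without, and 855 to 1077 with control AMO and PDGF-AA, against 1620 to 1941 without. The largest changes among them with pA and control AMO were those of Comp, at -1.36 with pA AMO, 0.08 with 5'ss AMO and -1.34 with control AMO. Of the 6, 4 were below 0 with pA AMO and 5 with control AMO, and Mkx and Kera were under the dim limit. The 9 myogenic markers summed to 1356 to 1792 with pA AMO and PDGF-AA, against 1708 to 2817 without, with 9 of 9 lower, to 1425 to 2144 with 5'ss AMO and PDGF-AA, against 1123 to 1762 without, and to 1496 to 1633 with control AMO and PDGF-AA, against 1015 to 2234 without. The 6 adipocyte markers, all above the limit, summed to 4124 to 5949 with pA AMO and PDGF-AA, against 4242 to 6037 without, to 5232 to 7431 with 5'ss AMO and PDGF-AA, against 3919 to 5712 without, and to 4015 to 6158 with control AMO and PDGF-AA, against 4202 to 6106 without. Most of that sum is Lpl (mean level 11.99), with changes of 0.04 with pA AMO, 0.12 with 5'ss AMO and 0.07 with control AMO. The median change of the 6 was -0.27 with pA AMO (1 above 0), 1.10 with 5'ss AMO (5 above 0) and -0.45 with control AMO (2 above 0), none at an unadjusted p under 0.05 in limma. Adipoq was at -0.14 with pA AMO, 1.48 with 5'ss AMO and -0.31 with control AMO, Cd36 at -0.40, 1.42 and -0.92, and Fabp4 at -0.63, 1.32 and -0.79 in the same order.

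The 6 macrophage and leukocyte markers summed to 385 to 387 with pA AMO and PDGF-AA, against 396 to 408 without, to 390 to 463 with 5'ss AMO and PDGF-AA, against 423 to 433 without, and to 335 to 376 with control AMO and PDGF-AA, against 398 to 434 without. Of these Lyz2 was at -0.24 with pA AMO, 0.24 with 5'ss AMO and -0.84 with control AMO, and at 1.10 for 5'ss minus control AMO with PDGF-AA. The 6 smooth muscle and pericyte markers summed to 588 to 612 with pA AMO and PDGF-AA, against 601 to 637 without, to 610 to 635 with 5'ss AMO and PDGF-AA, against 618 to 630 without, and to 550 to 575 with control AMO and PDGF-AA, against 604 to 614 without. The endothelial markers summed to 754 to 1012 and the Schwann cell markers to 194 to 231 over all groups. The part of these cells in the results above was not tested.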

How the data were processed

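The authors deposited log2 expression values per transcript cluster, which the submitters' processing notes credit to RMA and Affymetrix Expression Console, versions not given in the sources used here. RMA corrects background, equalises array distributions and summarises probes, so a shift of all genes alike would be removed. Array medians lay at 6.04 to 6.23. The 21789 clusters with 1 gene symbol, of 35556, were fitted in limma 3.58.1 (R 4.3.3) with a mean for each of the 6 groups and 6 residual degrees of freedom, and p-values were Benjamini-Hochberg adjusted over all of them at 0.05. Same-numbered arrays deviated together in 15 of 15 pairs of groups (correlation 0.20 to 0.61) although the labels name no shared batch, so the number was also used as a block. Nothing says that replicates were separate cultures beyond the pooled mice, so p-values measure the spread between these samples. Named genes were the HIF subunits, Vhl and the hydroxylases, the 6 genes with the smallest p in each comparison described, genes passing with or without the block, and up to 3 per further pathway list; remaining genes of the set are given by role. The members and lists were chosen with earlier results of these data known. The fit was also run on simulated data with independent arrays and added changes larger than any mean change of the set. That run does not show how well changes of the size seen here are found. The number of arrays limits the precision.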

Additional observations from a re-analysis of the deposited data

How the results depend on the processing

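With the replicate block, clusters passing were 21 for PDGF-AA averaged over AMOs, 3 for 5'ss minus control AMO averaged over PDGF-AA, 1 for that difference without PDGF-AA, 22 with PDGF-AA, and 6 for pA minus 5'ss AMO, where the fit without the block passed 0. Trended and robust moderation passed 39 for PDGF-AA averaged over AMOs, 13 with control AMO, 7 for 5'ss minus control AMO on average, 6 with PDGF-AA and 2 for pA minus 5'ss AMO. For 5'ss minus control AMO with PDGF-AA, repeated quantile normalization passed 5 and median centring 1. Leaving out 1 array passed 0 to 1 clusters for 5'ss minus control AMO on average and with PDGF-AA, and 0 in the other comparisons. Genes of the set at an unadjusted p under 0.05 numbered 9 with control AMO (17 before) and 0 with 5'ss AMO (1 before) after median centring, which also gave 4 for 5'ss minus control AMO without PDGF-AA (8 before) and 3 for the difference between the 5'ss and control AMO effects (11 before). For the 8, the block gave 13, trended and robust moderation 13 and a fit of the groups compared 5. For the 6 of the difference between pA and 5'ss AMO effects, trended and robust moderation gave 13. Leaving out 1 array gave 11 to 19 on average, 10 to 17 with control AMO, 7 to 16 with pA AMO, 0 to 2 with 5'ss AMO, 1 to 8 for 5'ss minus control AMO without PDGF-AA, and 5 to 11 and 4 to 10 for the 2 differences of effects. The averaged changes near 0 were as low as -0.12 for Hif3a and -0.16 for Hif1an when 1 array was left out, and turned sign for Hif3a without replicate 1 of pA AMO (0.03) or 5'ss AMO (0.10) without PDGF-AA, control AMO with PDGF-AA replicate 2 (0.05), pA AMO with PDGF-AA replicate 2 (0.02) or 5'ss AMO with PDGF-AA replicate 1 (0.02), and for Hif1an without replicate 2 of pA AMO (0.04) or 5'ss AMO (0.03) without PDGF-AA, control AMO with PDGF-AA replicate 1 (0.08) or pA AMO with PDGF-AA replicate 1 (0.01). Of 2332 values of single genes under the alternatives, those 9 turned sign, 10 came to pass and none of those tested had passed before. The cause was not tested. With 2 arrays a group, small differences could not be resolved, and Hif3a and Car12 lay under the dim limit of 6.102.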
